A study of Homo sapiens with 2 samples.

Results

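Ubiquitin-conjugating enzymes, cullins and the adaptors that bring substrates to cullin ligases were followed in 2 RNA-seq libraries of Huh7, a human cell line established from a hepatocellular carcinoma. The members were all listed genes whose symbol begins with UBE2, CUL and a digit, FBXL, FBXO, FBXW, or KLHL and a digit, with UBE2A and UBE2B left out. This gave 108 of the 11976 listed genes, of which 31 were UBE2 genes, 8 cullins, 12 FBXL, 27 FBXO, 7 FBXW and 23 KLHL genes. One library came from cells given an shRNA against USP22 (USP22 shRNA), a ubiquitin hydrolase, and 1 from cells given a control shRNA, which share the cell line. The labels give no shRNA sequence, clone number or time after transfection.

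Ubiquitin is passed from an activating enzyme (E1) to a conjugating enzyme (E2), and then to a substrate chosen by a ligase (E3). UBE2 genes encode the E2s, some of which carry the ubiquitin-like proteins NEDD8, SUMO or ISG15 instead. A cullin is the scaffold of a large class of ligases: one end holds a RING protein that recruits the charged E2, and the other holds an adaptor and its substrate. CUL1 takes F-box proteins (FBXL, FBXO and FBXW) through SKP1, CUL3 takes BTB-kelch proteins of the KLHL family directly, CUL2 and CUL5 work through elongins, and CUL4A and CUL4B through DDB1. Cullins are switched on when NEDD8 is attached to them and off when the COP9 signalosome removes it.

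Values were read as FPKM, a level scaled by transcript length and library size, and each difference is the log2 ratio, log2 of (USP22 shRNA + 1) over (control + 1). A gene was called higher or lower when this ratio was at least 1 in size (2-fold) and its mean over both libraries was at least 1 FPKM. With 1 library per group there is no replicate error, no test and no depth behind a value, and every difference describes these 2 libraries. USP22 itself was at 7.67 FPKM in the USP22 shRNA library, against 58.1 FPKM in the control. All 10 hepatocyte markers were listed, summing to 1451 FPKM in the USP22 shRNA library and 2643 FPKM in the control. Of these, 7 were lower in the USP22 shRNA library, from ALB at 72.8 against 89.9 FPKM to AHSG at 69.3 against 535 FPKM. The 3 higher ones were AFP at 347 against 270 FPKM, APOB at 100 against 51.4 FPKM and FGB at 208 against 110 FPKM. Among marker genes of leukocytes, 2 of 6 were listed, LYZ at 93.6 FPKM in the USP22 shRNA library against 386 FPKM in the control and CD68 at 0.416 against 3.88 FPKM. Of 7 endothelial and stromal markers 3 were listed, summing to 2.07 FPKM in the USP22 shRNA library and 2.18 FPKM in the control with ACTA2 at 0 in both, and 3 of 4 neuronal markers summed to 7.71 and 9.44 FPKM. The labels of both libraries name Huh7 and no other cells. The part of these marker genes in the results below was not tested.

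Of the 108 members, 102 passed the filter and none was listed at 0. As deposited, 33 were at least 2-fold higher in the USP22 shRNA library, 32.4% of those past the filter beside 24.1% of all 10195 genes. Lower members numbered 5, or 4.90%, beside 12.2% of all genes, and the median log2 ratio was 0.39 for the members and 0.10 for all genes. Of the 102, 12 passed although they lay under 1 FPKM in the control and 2 although they lay under 1 FPKM in the USP22 shRNA library. For these genes the filter fixed the direction of the difference. Without the filter the members' counts were the same, 33 higher and 5 lower of 108, beside 21.2% and 10.6% of all genes. The log2 ratio fell with the GC content of a gene's longest coding transcript, with a Spearman rho of -0.70 over 10134 genes and -0.77 over the 102 members. Genes are not independent replicates, and rho is given as a description. With that trend removed by a smooth curve, 4 members were at least 2-fold higher (3.92%, beside 8.45% of all genes) and 5 lower (4.90%, beside 8.92%). Only 3 of these 4 and 1 of these 5 had the same call as deposited. The value with the GC trend removed is therefore given beside most results. The cause of the trend was not tested.

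Most cullins were higher in the USP22 shRNA library. Of the 8, 5 were at least 2-fold higher, beside 24.1% of all genes, none was lower, beside 12.2%, and the median log2 ratio was 1.27. The 5 lay below 50% GC, where the share of all genes called higher was 69.3% below 40% GC and 34.5% from 40% to 50%. The summed cullin level was 78.3 FPKM in the USP22 shRNA library, against 33.5 FPKM in the control. CUL4B, a scaffold of DDB1-based ligases (ENSG00000158290.16_2; in GENCODE 29 on GRCh38 at chromosome X, 120524609 to 120575794, minus strand), was at 13.0 FPKM in the USP22 shRNA library, against 1.73 FPKM in the control. That is 7.54-fold higher, with a log2 ratio of 2.36. This was the highest of the 102 members with 1 FPKM added, but by plain fold KLHL24 (17.5), KLHL28 (11.0) and KLHL15 (8.31) were above it. With the GC trend removed, FBXO10 (1.65), KLHL11 (1.26) and KLHL30 (1.05) were above CUL4B (1.04). CUL4A, its sister scaffold, was at 13.6 FPKM in the USP22 shRNA library and 6.66 FPKM in the control, just inside 2-fold on the log2 scale at 0.93. The 2 sister genes were thus at about the same level in the USP22 shRNA library, while CUL4A was the higher of the pair in the control.

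CUL2, the scaffold used by the VHL ligase, was at 8.08 FPKM in the USP22 shRNA library, against 1.498 FPKM in the control (log2 ratio 1.86). CUL5, which works with SOCS-box adaptors, was at 4.61 against 0.944 FPKM (1.53). CUL3, the partner of the KLHL proteins, was at 7.30 against 2.06 FPKM (1.44). CUL1, the partner of the F-box proteins and the most abundant cullin in both libraries, was at 21.97 against 9.74 FPKM (1.10). The atypical cullins CUL7 and CUL9 differed little, CUL7 at 8.59 FPKM in the USP22 shRNA library and 9.67 FPKM in the control, and CUL9 at 1.13 and 1.23 FPKM. These last 2 had the most GC-rich transcripts of the family, at 59.5% and 58.5%, while the other 6 lay between 36.6% and 44.4%. After removal of the GC trend the cullin median was 0.41, 7 of 8 ratios were above 0, and CUL4B, at 1.04, was the single cullin at least 2-fold higher. CUL2 was then at 0.58, CUL1 at 0.40, CUL5 at 0.18, CUL3 at 0.12 and CUL4A at -0.08, while CUL7 and CUL9 were at 0.43 and 0.49.

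**Figure D1:**
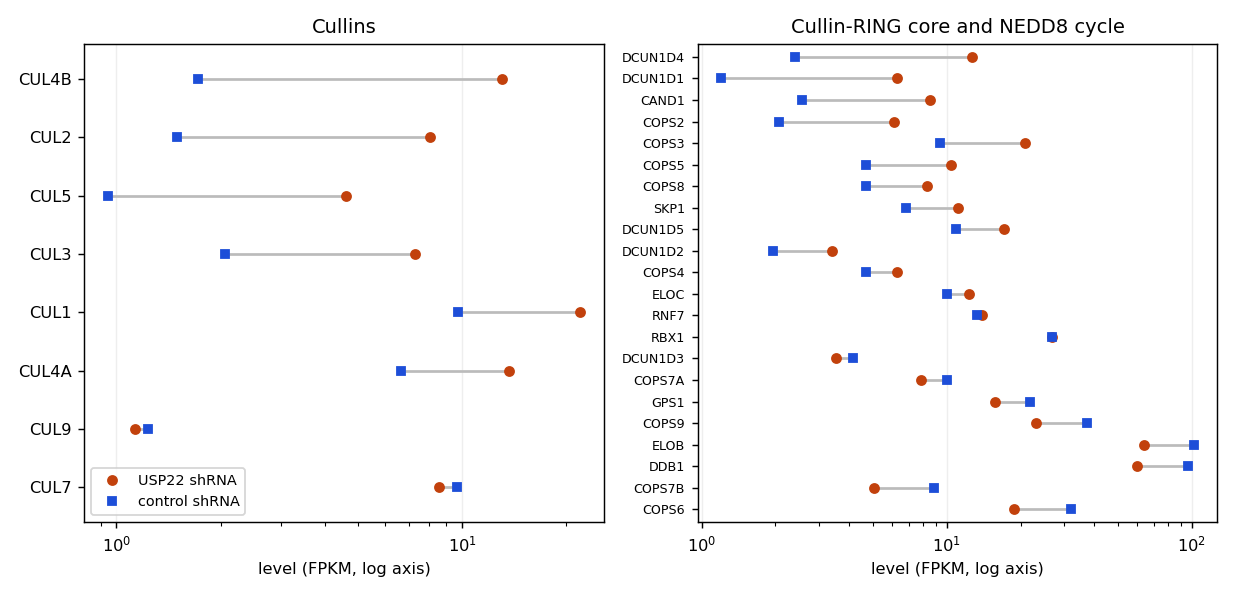
Level of each cullin (left) and of cullin-RING core and NEDD8 cycle genes past the filter (right) on a log axis in FPKM, 1 library per group, with circles for USP22 shRNA and squares for control shRNA, ordered by log2 ratio. Circles lie to the right of squares for 6 of the 8 cullins, with the widest gap for CUL4B at 13.0 against 1.73 FPKM.

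The longest transcripts of the CUL4 pair had GC contents of 37.7% in CUL4B and 42.1% in CUL4A. The sources used here do not give how reads that fit both genes were shared.

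Among the genes that work directly with cullins, the lists differed. In the core list, 6 of 6 genes lay inside 2-fold, with a median log2 ratio of 0.03. SKP1, which links F-box proteins to CUL1, was at 11.1 FPKM in the USP22 shRNA library and 6.85 FPKM in the control, and the RING protein RBX1 at 26.9 and 26.8 FPKM. DDB1, the CUL4 linker, was at 59.5 against 96.5 FPKM, and the elongin ELOB at 63.7 against 102 FPKM. RNF7, the RING protein of CUL5, was at 13.9 and 13.3 FPKM, and at -1.01 with the GC trend removed it was the 1 core gene past 2-fold. In the list of the NEDD8 cycle, 6 of 16 were at least 2-fold higher (beside 24.1% of all genes), none was lower (beside 12.2%), and the median was 0.59. They were the NEDD8 ligase factors DCUN1D1, at 6.27 against 1.20 FPKM, and DCUN1D4, at 12.7 against 2.41 FPKM, the cullin exchange factor CAND1, at 8.57 against 2.56 FPKM, and 3 signalosome subunits. COPS5, the subunit that cuts NEDD8 from cullins, was the last of these at 10.4 FPKM in the USP22 shRNA library and 4.68 FPKM in the control. Another signalosome subunit, COPS6, was at 18.8 against 32.04 FPKM, so the subunits did not share a direction. None of the 6 stayed past 2-fold after removal of the GC trend, when the median was 0.11 and COPS5 was closest at 0.97.

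F-box genes, the CUL1 adaptors, were mixed. Of 46 listed, 42 passed the filter, 13 were at least 2-fold higher (31.0%, beside 24.1% of all genes) and 3 lower (7.14%, beside 12.2%). Their median log2 ratio was 0.10, but -0.10 under TMM scaling, which trims extreme genes to set the libraries level, and -0.19 when the filter was raised to a mean of 5 FPKM. Their summed level was 276 FPKM in the USP22 shRNA library, against 301 FPKM in the control. The lowest ratio of all 102 members belonged to FBXW5 (ENSG00000159069.13_3; chromosome 9, 136940435 to 136944696 on GRCh38, minus strand), an adaptor known for the centriole protein SASS6. It was at 12.1 FPKM in the USP22 shRNA library, against 45.7 FPKM in the control, 3.77-fold higher in the control, with a log2 ratio of -1.83. FBXW5 was still at least 2-fold lower after removal of the GC trend, at -1.09, and it was the member that kept its call in all 7 alternatives run on single genes. In the control it was the most abundant FBXW gene, and in the USP22 shRNA library FBXW11, which recognises phosphorylated beta-catenin, was, at 15.1 against 8.10 FPKM.

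Among the other FBXW genes, FBXW2 was at 8.99 FPKM in the USP22 shRNA library, against 3.89 FPKM in the control, a log2 ratio of 1.03 just outside 2-fold that was 0.05 with the GC trend removed. FBXW7, the adaptor for cyclin E and MYC, was just inside 2-fold at 0.97, at 2.48 against 0.778 FPKM, a plain ratio of 3.19 that the added 1 understates. Its ratio was 0.50 with the GC trend removed. FBXW8 was at 5.59 and 7.05 FPKM, FBXW9 at 4.73 and 4.23 FPKM, and FBXW4 at 3.04 and 5.10 FPKM, all inside 2-fold.

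In the FBXL family, FBXL5, which senses iron and degrades the iron regulatory protein IREB2, was at 12.0 FPKM in the USP22 shRNA library, against 4.46 FPKM in the control (log2 ratio 1.25), and was the most abundant FBXL gene in the USP22 shRNA library. FBXL4, a regulator of mitophagy at the mitochondrial outer membrane, was at 2.21 against 0.389 FPKM (1.21). As FBXL4 was under 1 FPKM in the control, the filter fixed its direction. FBXL19, a CpG-island binding adaptor, was the lower one, at 3.03 against 8.56 FPKM (-1.25), and it was the most abundant FBXL gene in the control. An exon of AC135048.1 overlaps FBXL19 on the same strand, so its value is uncertain. FBXL5 (0.08), FBXL4 (-0.14) and FBXL19 (-0.46) lay inside 2-fold with the GC trend removed. FBXL12, at 7.39 FPKM in the USP22 shRNA library and 7.01 FPKM in the control, and FBXL6, at 4.72 and 6.06 FPKM, were also among the most abundant of the family and lay inside 2-fold. Below the filter were FBXL2, FBXL8 and FBXL20, with 0.206 to 1.16 FPKM in the USP22 shRNA library and 0.200 to 0.658 FPKM in the control.

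Of 26 FBXO genes past the filter, 9 were at least 2-fold higher (34.6%, beside 24.1% of all genes) and 1 lower (3.85%, beside 12.2%). FBXO28, an adaptor reported to act on MYC, was at 11.4 FPKM in the USP22 shRNA library, against 2.22 FPKM in the control, with the highest log2 ratio of the family (1.95). FBXO33 stood at 6.55 against 1.83 FPKM, FBXO25 at 6.56 against 1.94 FPKM, FBXO34 at 5.61 against 1.66 FPKM and FBXO8 at 4.74 against 1.43 FPKM. FBXO5 (also EMI1), an inhibitor of the anaphase-promoting complex, was at 6.38 against 1.94 FPKM, and FBXO11, an adaptor for BCL6, at 6.36 against 2.02 FPKM. The remaining higher pair was FBXO30, at 2.88 against 0.594 FPKM, and FBXO10, an adaptor for BCL2, at 11.2 against 4.39 FPKM. As FBXO30 was under 1 FPKM in the control, the filter fixed its direction.

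FBXO10 differed from the rest in its sequence context: at 55.7% GC it was the single higher member above 50%, and its log2 ratio was 1.18 before and 1.65 after removal of the GC trend. An exon of another annotated gene, AL513165.2, overlaps it on the same strand, so its value is uncertain. The other 8 higher FBXO genes lay inside 2-fold with the trend removed, from -0.11 for FBXO30 to 0.92 for FBXO34. FBXO2, which binds glycoproteins returned from the endoplasmic reticulum, was the most abundant F-box gene in both libraries, at 36.9 FPKM in the USP22 shRNA library against 76.8 FPKM in the control (log2 ratio -1.04, and -0.29 with the trend removed). Its exons overlap those of its opposite-strand neighbour FBXO44, itself at 4.498 against 8.92 FPKM. Also abundant was FBXO7, a mitophagy and proteasome factor, which was level at 11.2 FPKM in the USP22 shRNA library and 11.4 FPKM in the control. FBXO4 and FBXO9 were inside 2-fold at first, at log2 ratios of -0.42 and -0.05, but at -1.63 and -1.22 with the trend removed. FBXO9 shares exons with RN7SL244P on the same strand, so its value is uncertain. FBXO3 fell short of the filter at 0.900 FPKM in the USP22 shRNA library and 0.323 FPKM in the control.

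**Figure D2:**
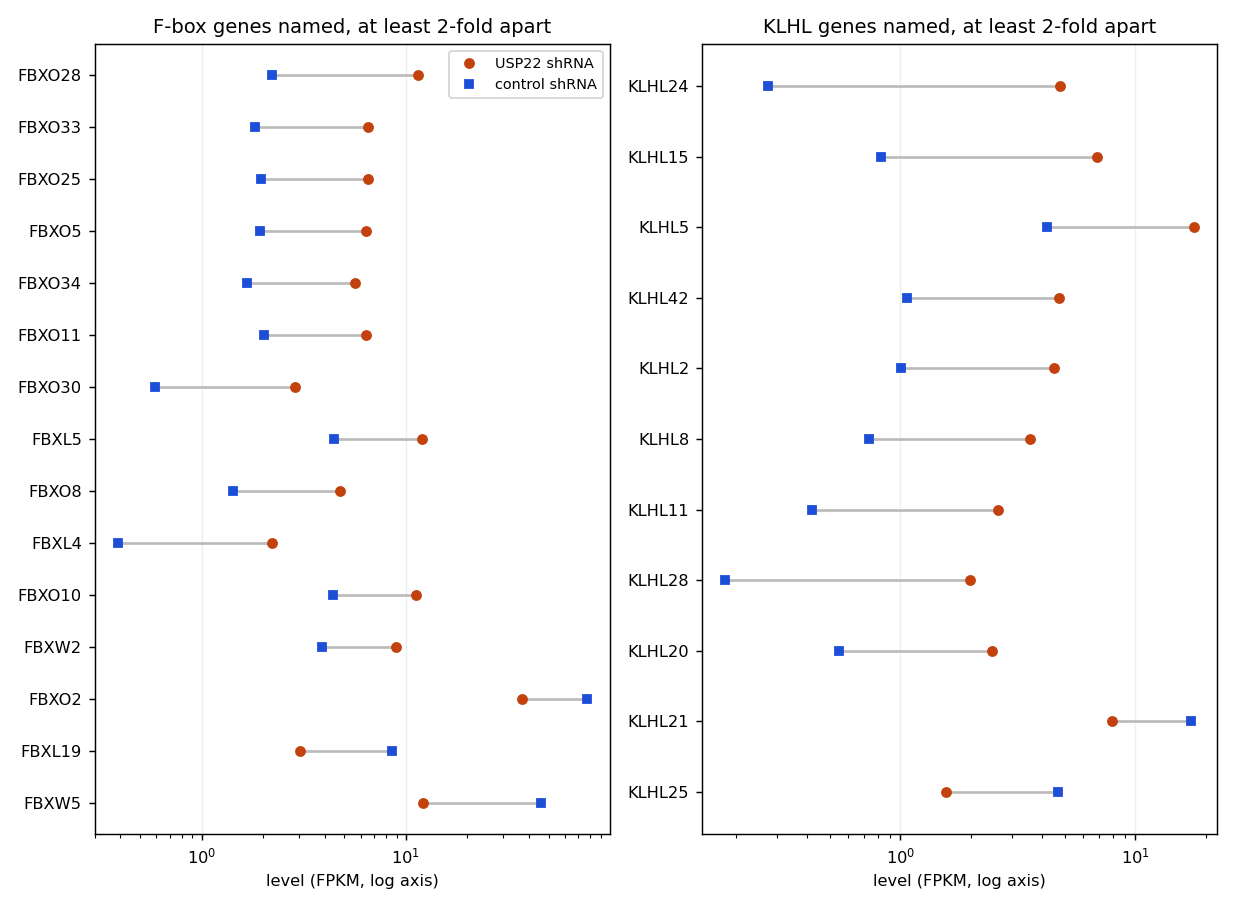
Level in FPKM on a log axis of the F-box genes (left) and KLHL genes (right) named in the text that passed the filter and were at least 2-fold apart, 1 library per group, with circles for USP22 shRNA and squares for control shRNA. FBXW5 at the bottom left lies lowest in ratio, at 12.1 against 45.7 FPKM, and KLHL24 at the top right highest, at 4.79 against 0.274 FPKM.

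KLHL genes, the CUL3 adaptors, were mostly higher or inside 2-fold. All 23 listed passed the filter, 9 were at least 2-fold higher (beside 24.1% of all genes) and 2 lower (beside 12.2%), with 0.72 as the median log2 ratio. Of the 9, 6 were under 1 FPKM in the control and passed only through the USP22 shRNA library, so these 6 had to differ in that direction. Of the 5 KLHL genes whose mean reached 5 FPKM, 1 was higher and 1 lower, beside 20.2% and 14.8% of all genes at that level, and the median was -0.23. KLHL genes were low, with a median of 3.18 FPKM in the USP22 shRNA library and 1.28 FPKM in the control. KLHL24, an adaptor known for keratin 14 turnover in skin, was at 4.79 FPKM in the USP22 shRNA library, against 0.274 FPKM in the control (log2 ratio 2.18). KLHL15, an adaptor for a regulatory subunit of the phosphatase PP2A, was at 6.85 against 0.824 FPKM (2.10). KLHL5 was at 17.8 against 4.21 FPKM (1.85), and it was the most abundant of the family in the USP22 shRNA library and rank 7 of 23 in the control.

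Others past 2-fold included KLHL2, an adaptor for the WNK kinases, at 4.49 FPKM in the USP22 shRNA library against 1.01 FPKM in the control, and KLHL42, which acts on the microtubule-severing protein katanin, at 4.75 against 1.06 FPKM. KLHL20, which targets the kinase DAPK1, was at 2.45 against 0.549 FPKM. KLHL8 was at 3.55 against 0.734 FPKM, KLHL11 at 2.62 against 0.422 FPKM and KLHL28 at 1.98 against 0.180 FPKM. With the GC trend removed these were at 0.52 for KLHL2, 0.75 for KLHL42, 0.09 for KLHL20 and KLHL8, and -0.06 for KLHL28. Opposite in direction were KLHL21, a mitotic adaptor for Aurora B and the most abundant KLHL gene in the control, at 7.92 against 17.2 FPKM (-1.03), and KLHL25, reported to target the lipogenic enzyme ACLY, at 1.56 against 4.70 FPKM (-1.16).

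With the GC trend removed, KLHL11 stayed at least 2-fold higher (1.26) and KLHL30, at 0.41 as deposited, came to 1.05. KLHL24 was then at 0.84, KLHL15 at 0.77 and KLHL5 at 0.64, and neither KLHL21 (-0.45) nor KLHL25 (-0.53) was past 2-fold. The family median was 0.09. KLHL12, which acts on the COPII coat and is among the most abundant of the family, was at 8.91 FPKM in the USP22 shRNA library and 6.66 FPKM in the control. KLHL9 and KLHL13, the partners of KLHL21 in mitosis, were at 2.89 against 1.28 FPKM and at 1.66 against 0.613 FPKM, inside 2-fold on the log2 scale at 0.77 and 0.72. With the GC trend removed they were at -0.48 and -0.63, also inside 2-fold.

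UBE2 genes were the most abundant of the families and divided about evenly in direction. Of 31 listed, 29 passed the filter, 6 were at least 2-fold higher (20.7%, beside 24.1% of all genes) and none was lower (beside 12.2%). Under TMM scaling 4 were higher and 4 lower, beside 19% and 16.9% of all genes. The median log2 ratio was -0.04, with 14 ratios above 0 and 15 below. Their summed level was 723 FPKM in the USP22 shRNA library and 771 FPKM in the control. Below the filter were UBE2E2, at 0.433 and 0.507 FPKM, and the read-through locus UBE2F-SCLY, at 0.189 and 0.765 FPKM. With the GC trend removed none was at least 2-fold higher, 2 were lower, and 21 of 29 ratios were below 0 (median -0.25), beside 5055 of 10134 genes below 0 overall.

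UBE2Q2 was at 12.7 FPKM in the USP22 shRNA library, against 4.17 FPKM in the control (log2 ratio 1.41). UBE2N, the E2 of non-degradative ubiquitin chains, was at 14.7 against 5.55 FPKM (1.26), and its catalytically inactive partner UBE2V2 at 11.5 against 4.07 FPKM (1.301). UBE2V1, the alternative partner of UBE2N, went the other way at 23.2 against 44.1 FPKM (-0.90). UBE2V1 shares exons with the read-through gene TMEM189-UBE2V1 on the same strand, so its value is uncertain. With the GC trend removed, UBE2N was at 0.21, UBE2V2 at -0.10, UBE2Q2 at 0.41 and UBE2V1 at -1.70, the lowest member by that measure.

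UBE2J1, a membrane-anchored E2 of endoplasmic reticulum quality control, was at 43.5 FPKM in the USP22 shRNA library, against 17.4 FPKM in the control (1.28). Its sister UBE2J2 was at 7.61 against 15.0 FPKM (-0.90), and UBE2G2, which serves the same pathway, at 10.1 against 14.1 FPKM (-0.43). UBE2K, which builds degradative chains, was at 21.7 against 9.35 FPKM (1.13). With the trend removed UBE2J1 was at 0.07, UBE2J2 at -0.30, UBE2G2 at -0.36 and UBE2K at -0.21.

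The D class, the general-purpose E2s that serve many ligases, was uneven. UBE2D3 was at 21.1 FPKM in the USP22 shRNA library, against 9.21 FPKM in the control (1.11). UBE2D1 was at 5.72 against 3.99 FPKM (0.43), UBE2D2 at 19.4 against 21.8 FPKM (-0.16) and UBE2D4 at 2.61 against 2.70 FPKM (-0.04). UBE2D2 was thus the most abundant of the class in the control and UBE2D3 in the USP22 shRNA library. The first 150 coding bases of the 4, from GENCODE 29 transcripts on GRCh38 and 5′ to 3′, show how close the coding sequences are, with capitals wherever the 4 are not all the same.
UBE2D3: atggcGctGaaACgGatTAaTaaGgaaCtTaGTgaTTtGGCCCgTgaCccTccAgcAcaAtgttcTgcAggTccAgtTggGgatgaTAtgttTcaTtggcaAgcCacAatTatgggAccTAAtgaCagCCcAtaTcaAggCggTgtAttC
UBE2D1: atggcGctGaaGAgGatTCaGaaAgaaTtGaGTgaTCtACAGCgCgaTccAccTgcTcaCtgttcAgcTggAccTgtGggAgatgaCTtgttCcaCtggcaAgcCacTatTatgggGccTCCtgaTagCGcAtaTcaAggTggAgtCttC
UBE2D2: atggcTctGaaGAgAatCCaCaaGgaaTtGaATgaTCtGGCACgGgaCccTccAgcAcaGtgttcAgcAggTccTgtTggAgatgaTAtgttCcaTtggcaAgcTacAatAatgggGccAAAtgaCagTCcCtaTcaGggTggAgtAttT
UBE2D4: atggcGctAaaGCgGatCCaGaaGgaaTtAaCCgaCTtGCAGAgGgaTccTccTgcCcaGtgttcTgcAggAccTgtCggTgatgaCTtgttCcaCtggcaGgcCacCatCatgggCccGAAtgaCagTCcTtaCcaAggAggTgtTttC
UBE2D3 and UBE2D2 shared 122 of these 150 bases (81.3%) and 48 of 50 encoded residues. Over the whole coding sequence their GC contents were close, at 41.4% for UBE2D3 and 41.9% for UBE2D2, and over the longest transcript they were 39.99% and 46.6%. UBE2D1 had the most AT-rich transcript of the 102 members past the filter, at 34.0% GC, without a ratio past 2-fold. With the GC trend removed the 4 stood at -0.10 for UBE2D3, -0.98 for UBE2D1, -0.53 for UBE2D2 and -0.26 for UBE2D4.

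UBE2C, UBE2S and UBE2T, E2s of the cell cycle or of DNA repair, were highly expressed. UBE2C, which starts ubiquitin chains on the anaphase-promoting complex, was the most abundant member in both libraries, at 107 FPKM in the USP22 shRNA library and 121 FPKM in the control (-0.18). UBE2S, which extends those chains, was at 50.9 against 93.4 FPKM (-0.86), and UBE2T, the E2 of the Fanconi anaemia pathway, at 45.5 against 23.9 FPKM (0.90). None of the 3 was past 2-fold, and with the GC trend removed they were at -0.16, -0.39 and 0.11. In the list of the anaphase-promoting complex and its activators, 4 of 16 genes were at least 2-fold higher (beside 24.1% of all genes) and 1 lower (beside 12.2%), near the background, with a median of 0.23. Higher were ANAPC4, at 7.74 against 1.26 FPKM, CDC27, at 9.28 against 1.68 FPKM, CDC23, at 19.7 against 6.19 FPKM, and CDC16, at 11.0 against 4.31 FPKM. The activator FZR1 was lower, at 4.16 against 10.7 FPKM, and all 5 were inside 2-fold with the trend removed.

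Among the E2s for ubiquitin-like proteins none was past 2-fold. UBE2M, the main NEDD8 E2, was at 46.4 FPKM in the USP22 shRNA library, against 93.3 FPKM in the control, a log2 ratio of -0.99 just inside 2-fold that was -0.25 with the GC trend removed. UBE2F, the NEDD8 E2 of CUL5, was at 5.09 against 6.95 FPKM (-0.38), and at -1.21 with the trend removed. UBE2F shares exons with UBE2F-SCLY on the same strand, so its value is uncertain. UBE2L6, the ISG15 E2, was at 77.2 against 65.7 FPKM (0.23), and at 0.76 with the trend removed.

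The other E2s were inside 2-fold. UBE2L3, the E2 of parkin-type ligases, was at 50.4 FPKM in the USP22 shRNA library and 53.8 FPKM in the control. UBE2R2, which extends chains on CUL1 ligases, was at 24.0 and 29.996 FPKM, UBE2Q1 at 23.5 and 27.2 FPKM and UBE2E1 at 26.9 and 23.4 FPKM. UBE2O, an E2 with ligase activity of its own, was at 12.5 against 19.3 FPKM, and UBE2E3 at 14.2 against 22.5 FPKM. UBE2H, the E2 of the CTLH ligase, was at 12.8 against 7.87 FPKM, UBE2Z, which takes ubiquitin from UBA6, at 11.4 against 7.39 FPKM, and UBE2G1 at 13.7 against 12.1 FPKM. UBE2W, which modifies protein amino termini, was low at 1.73 against 0.469 FPKM.

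**Figure D3:**
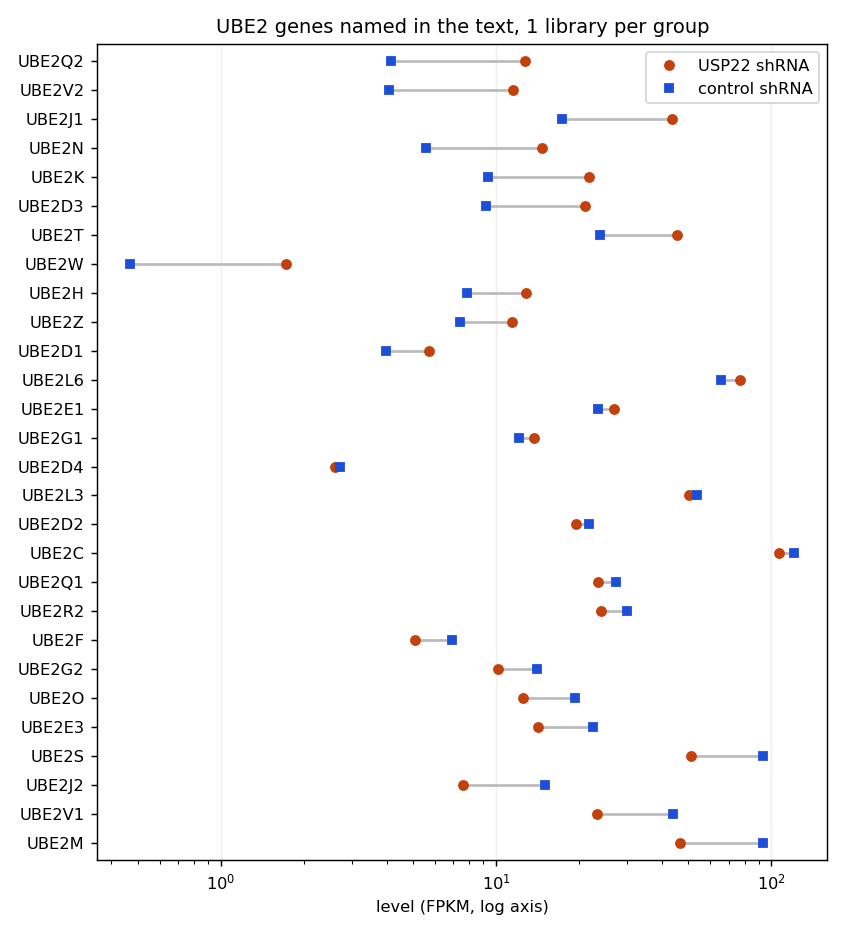
Level in FPKM on a log axis of the UBE2 genes named in the text that passed the filter, 1 library per group, ordered by log2 ratio, with circles for USP22 shRNA and squares for control shRNA. The upper 6, from UBE2Q2 to UBE2D3, are the ones at least 2-fold higher in the USP22 shRNA library, and UBE2C lies furthest right at 107 and 121 FPKM.

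The members were then set beside all genes of like GC content, as a description. Below 40% GC, 17 of 23 members (73.9%) were at least 2-fold higher, beside 69.3% of all genes in that range, and none was lower, beside 0.287%. From 40% to 50%, 15 of 37 (40.5%) were higher, beside 34.5% of all genes, and none was lower, beside 3.02%. From 50% to 60%, 1 of 25 was higher (beside 3.67%) and 1 lower (beside 19.0%). At 60% or above, none of 17 was higher (beside 1.42%) and 4 were lower (beside 30.8%). These ranges were chosen after the values were known. The 33 higher members had a median transcript GC content of 39.99%, and the 5 lower members 65.7%, with the lowest of the 5 at 59.5%.

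**Figure D4:**
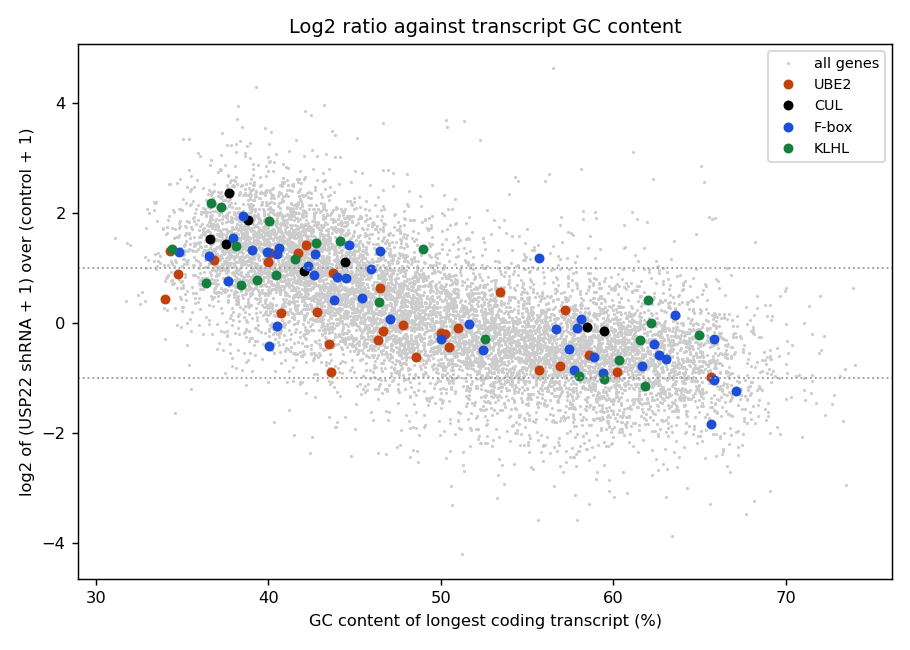
Log2 ratio against the GC content of the longest coding transcript in percent for all genes past the filter (grey) and for members coloured by family, with dotted lines at 2-fold. Members lie along the slope of the grey points, with the higher ones mostly below 50% GC and the 5 lower ones at 59.5% or above.

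Pairs of sister genes, or of genes with the same role, differed within families, as described here for pairs picked by hand with values known. UBE2V2 and UBE2V1 were far apart, at 1.301 and -0.90, as were UBE2J1 and UBE2J2, at 1.28 and -0.90. The CUL4B ratio exceeded that of CUL4A by 1.43 as deposited and by 1.12 with the trend removed. For UBE2J1 over UBE2J2 the difference was 2.17 as deposited and 0.37 with the trend removed. In 10 of the 12 pairs compared, the gene with the lower GC content had the higher ratio. The 2 pairs that went against this were UBE2L3 with UBE2L6 and KLHL13 with KLHL9. Outside the 12 pairs, UBE2D1, at 34.0% GC, had a lower ratio than UBE2D3, at 39.99%.

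**Figure D5:**
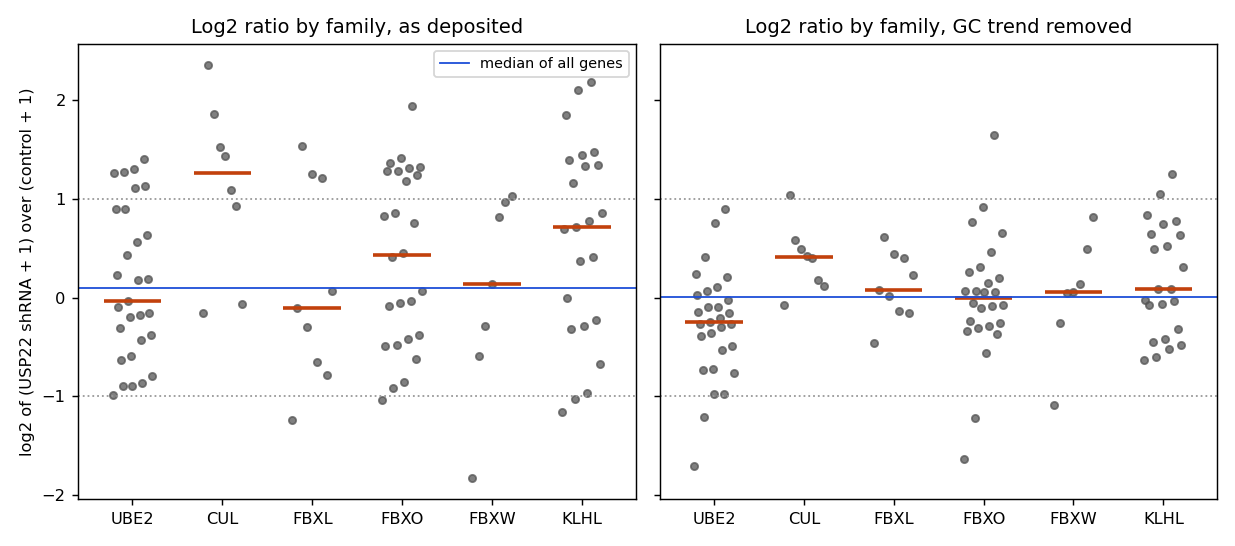
Log2 ratio of each member past the filter by family, from the deposited values (left) and after removal of the GC trend (right); points are genes, short bars family medians, the long line the median of all genes, and dotted lines 2-fold. Cullins have a median of 1.27 as deposited and 0.41 with the trend removed, and UBE2 genes -0.04 and -0.25.

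Adaptors with other names were also mixed. Of 35 past the filter in that list, 8 were at least 2-fold higher (beside 24.1% of all genes) and 4 lower (beside 12.2%), near the background, with a median log2 ratio of 0.45. DCAF6, a CUL4 adaptor, was at 22.04 FPKM in the USP22 shRNA library against 4.35 FPKM in the control, and ENC1, a BTB-kelch adaptor, at 22.9 against 6.03 FPKM. CRBN, the CUL4 adaptor bound by thalidomide, was at 3.95 against 0.903 FPKM. As CRBN was under 1 FPKM in the control, the filter fixed its direction. Lower were TNFAIP1, a CUL3 adaptor for RHOA, at 4.04 against 21.9 FPKM, the F-box protein cyclin F (CCNF), at 7.74 against 21.1 FPKM, KCTD5, at 8.60 against 22.5 FPKM, and AMBRA1, at 2.74 against 7.24 FPKM. DCAF6 (1.54), ENC1 (1.73) and TNFAIP1 (-1.92) stayed past 2-fold with the GC trend removed, while CRBN (0.41), CCNF (-0.80), KCTD5 (-0.84) and AMBRA1 (-0.68) did not. SKP2, the F-box protein of the inhibitor CDKN1B, was at 28.0 against 15.7 FPKM, inside 2-fold at 0.79.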

How the data were processed

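Messenger RNA of 2 Huh7 libraries, 1 per group by the labels' titles, was compared. Per the labels' protocols, total RNA was extracted with TRIZOL, cleaned, treated with DNase and libraries of messenger RNA were prepared. HISAT2 2.0.4, StringTie 1.3.0 and GRCh37 are listed in the submitters' processing notes. The annotation, the choice of genes and the use of strand are not given in the sources used here. The deposited header names no unit, and the values were read as FPKM, an assumption from values that are not whole and from StringTie, since TPM cannot be told apart. Deposited FPKM summed to 218955 in the USP22 shRNA and 244301 in the control library over 11976 genes. Low values multiplied by transcript length showed no read step (strength at most 0.132, where 1 is perfect), so the depth is not known and a count test could not be run.

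Using the deposited FPKM, log2 ratios with a pseudocount of 1 were computed over the whole table. The GC trend was removed by lowess (span 30%, statsmodels 0.14.6, Python 3.11.15) over 10134 genes. The procedure was tested on simulated data built from control levels of at least 5 FPKM, which does not cover genes at lower levels. GC content, gene spans and exon overlaps came from GENCODE 29 (GRCh38), matched by Ensembl identifier without version, with the longest coding transcript taken whether or not Huh7 uses it. Exons of another gene overlapped 52 of the 108 members, 14 of them on the same strand. The values of these 14 are uncertain whether or not strand was used. Those of members with an opposite-strand overlap are uncertain if strand was not used, and only the overlap of FBXO2 with FBXO44 is marked above. The 14 include FBXL6 and UBE2W, which are not marked above. The partner genes comprised 6 lists from general knowledge, with 93 of 97 genes listed. Members and lists were chosen with earlier results of these data known. The naming rule took all UBE2 and CUL genes past the filter, adaptors past 2-fold, up to 3 of highest level per family and partners past 2-fold. A few further adaptors were added with their values in view. Some partners past 2-fold are given as counts, and some genes under the rule are not reported here.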

Additional observations from a re-analysis of the deposited data

How the results depend on the processing

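No paired analysis was possible because each group has 1 library. Over 17 counts, medians and the USP22 ratio, 106 of 163 values under the alternatives stayed within 1.5 times the deposited count or 0.25 of the median, and 57 did not. USP22 kept its direction and size call in all 7 run on it. Of the 38 members called, 7 kept their call in all 5 alternatives other than the GC corrections, and FBXW5 was the 1 that kept it in all 7. Scaling mattered most for the lower members: 12 with TMM, 8 with median centring and 3 when rescaled without mitochondrial genes, against 5 as deposited. The share of all genes called lower moved too, to 16.9%, 14.5% and 10.1% in that order, against 12.2% as deposited. TMM shifted ratios by 0.24 and the median of all genes to -0.10, with 52.9% of calls higher against 66.3%, 59.8% with median centring and 73.1% without mitochondrial genes. TMM also gave 4 lower UBE2 genes, 5 lower F-box genes and 10 lower partner genes, median centring 1 lower UBE2 gene, and rescaling 1 lower KLHL gene.

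With a pseudocount of 0.1 there were 8 lower members (beside 15.5% of all genes), 1 lower UBE2 gene and a KLHL median of 1.12. With a pseudocount of 5 there were 6 higher and 1 lower members, beside 8.71% and 5.24% of all genes. Higher were 1 UBE2, 2 CUL, 1 F-box and 2 KLHL genes, and lower were 1 F-box and 0 KLHL genes. The CUL median was then 0.75 and the KLHL median 0.30, and 8 partner genes were higher and 3 lower. With a mean of at least 5 FPKM, 53 members remained, of which 13 were higher, beside 20.2% of all genes at that level. Higher were 2 of 4 CUL, 4 of 18 F-box and 1 of 5 KLHL genes, and 1 KLHL gene was lower. Of 66 partner genes 15 were higher, and medians were 1.02 for CUL, -0.19 for F-box and -0.23 for KLHL genes. Dropping the filter changed neither count of members. The 1.5-fold rule gave 20 lower members (beside 24.2% of all genes), of them 7 UBE2, 9 F-box and 4 KLHL, and 18 lower partner genes.

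Removal of the GC trend gave 4 higher members, beside 8.45% of all genes: 0 UBE2, 1 CUL, 1 F-box and 2 KLHL. Of the 4, 3 were also higher as deposited, and of the 5 then lower, 1 was also lower as deposited. There were 2 lower UBE2 and 0 lower KLHL genes, 3 higher partner genes, and medians of 0.41 for CUL and 0.0893 for KLHL. Removal of GC and length trends gave 3 higher members, beside 8.17% of all genes: 0 UBE2, 0 CUL, 1 F-box and 2 KLHL. Among them was KLHL30, which was inside 2-fold as deposited. There were 2 lower UBE2 and 0 lower KLHL genes, 4 higher partner genes, and medians of 0.33 for CUL and -0.0143 for KLHL. Called members that changed sign with the GC trend removed, given with both trends removed second, were FBXL4 at -0.14 and -0.30, FBXO30 at -0.11 and -0.28, KLHL28 at -0.0613 and -0.19, UBE2D3 at -0.10 and -0.12, UBE2K at -0.21 and -0.30, and UBE2V2 at -0.10 and -0.13. With both removed, CUL3 was at -0.0125, FBXW2 at -0.13 and KLHL8 at -0.0143. The cause of these shifts was not tested. By its construction the correction sets the ratio of a typical gene near 0 whatever its GC content.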

Other observations

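Upstream of the E2s, 3 of 7 E1 genes past the filter were at least 2-fold higher in the USP22 shRNA library (beside 24.1% of all genes) and none was lower (beside 12.2%). UBA6, an alternative ubiquitin E1, was at 3.46 FPKM in the USP22 shRNA library against 0.640 FPKM in the control, UBA3, the catalytic subunit of the NEDD8 E1, at 4.41 against 1.18 FPKM, and UBA2, of the SUMO E1, at 35.5 against 15.2 FPKM. As UBA6 was under 1 FPKM in the control, the filter fixed its direction. The main ubiquitin E1, UBA1, was at 41.1 against 73.2 FPKM, inside 2-fold on the log2 scale at -0.82. Subunits of one E1 differed, since SAE1, the partner of UBA2, was at 43.7 against 80.0 FPKM. None of the 7 was past 2-fold with the GC trend removed.

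Genes for ubiquitin and NEDD8 named here were inside 2-fold. UBB was at 203 FPKM in the USP22 shRNA library and 198 FPKM in the control, RPS27A was at 117 and 111 FPKM, and NEDD8 was at 22.5 and 27.0 FPKM. In the list of ubiquitin and ubiquitin-like genes, 2 of 10 were at least 2-fold higher (beside 24.1% of all genes) and none was lower (beside 12.2%). UFM1 was among the higher ones, at 10.2 against 3.41 FPKM and at -0.05 with the GC trend removed.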
